A study of Mus musculus with 20 samples.

Results

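The 36 mitotic genes described here encode proteins that carry a cell from the G2 phase through chromosome segregation and the final cut between daughter cells. They were taken by symbol from a fixed list of G2/M, spindle, kinetochore and cytokinesis genes. All 36 were found among the 54532 genes of the count table, and all 36 passed the filter on low counts that left 15543 genes for testing. RNA came from the aorta of C57BL/6J mice, an inbred strain, and was sequenced in 20 libraries, 5 in each of 4 groups: ascending aorta with water, ascending aorta with BAPN, descending aorta with water and descending aorta with BAPN. Mice received water or BAPN for 1 week. BAPN is β-aminopropionitrile, an inhibitor of the lysyl oxidases that cross-link elastin and collagen. No group carries a transgene or deletion in the labels, and age, sex and dose are not given in the sources used here. Whether each library holds 1 animal is not stated either, so p-values here refer only to the spread over these libraries, which may be technical.

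Entry into mitosis is driven by the kinase CDK1 with cyclins A and B, helped by the Polo and Aurora kinases. Kinetochores built on CENP-A chromatin then attach chromosomes to the spindle, the checkpoint holds the anaphase-promoting complex until all are attached, and the central spindle places the contractile ring. Most of these genes are transcribed late in the cycle and are shut off in resting cells by the DREAM complex, which binds a promoter word called CHR (cell cycle genes homology region), often next to CCAAT boxes bound by NF-Y. In the adult aorta most smooth muscle, endothelial and fibroblast cells rest, and most transcripts of this kind mark the few that divide. Whether the mice here were adult is not given in the sources used.

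Because these genes are known for shared promoter words, 8 promoter stretches are shown with the words in capitals. They belong to the kinase genes Cdk1, Plk1 and Bub1, the proliferation antigen gene Mki67, the spindle motor gene Kif11, the anaphase activator gene Cdc20, the topoisomerase gene Top2a and the contractile ring gene Anln. Bub1 and Anln are included because they lack the CHR word there. Each is the 120 bases before the RefSeq transcription start on GRCm38.p6, 5′ to 3′ on the gene's strand. Capitals mark CHR (TTTGAA or TTTAAA) and CCAAT, on either strand, so that TTCAAA and ATTGG are also capitals.
Cdk1, chr10:69352913-69353032, minus strand: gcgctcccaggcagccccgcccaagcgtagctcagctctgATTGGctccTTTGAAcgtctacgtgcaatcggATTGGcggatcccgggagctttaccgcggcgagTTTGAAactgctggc
Plk1, chr7:122159315-122159434, plus strand: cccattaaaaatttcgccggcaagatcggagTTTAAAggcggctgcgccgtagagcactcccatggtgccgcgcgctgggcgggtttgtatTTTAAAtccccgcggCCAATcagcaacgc
Mki67, chr7:135716380-135716499, minus strand: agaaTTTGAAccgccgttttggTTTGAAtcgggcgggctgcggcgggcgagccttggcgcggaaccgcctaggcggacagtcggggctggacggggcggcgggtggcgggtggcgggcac
Bub1, chr2:127831860-127831979, minus strand: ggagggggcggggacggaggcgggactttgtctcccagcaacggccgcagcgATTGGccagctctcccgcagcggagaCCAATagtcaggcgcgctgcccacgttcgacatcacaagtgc
Kif11, chr19:37376262-37376381, plus strand: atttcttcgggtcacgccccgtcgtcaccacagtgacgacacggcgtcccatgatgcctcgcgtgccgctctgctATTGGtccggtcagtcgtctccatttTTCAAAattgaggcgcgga
Cdc20, chr4:118437344-118437463, minus strand: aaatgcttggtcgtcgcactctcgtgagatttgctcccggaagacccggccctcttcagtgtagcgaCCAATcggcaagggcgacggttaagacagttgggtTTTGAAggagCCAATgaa
Top2a, chr11:99024190-99024309, minus strand: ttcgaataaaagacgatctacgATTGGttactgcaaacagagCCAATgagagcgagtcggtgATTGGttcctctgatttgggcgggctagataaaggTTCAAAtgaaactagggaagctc
Anln, chr9:22389207-22389326, minus strand: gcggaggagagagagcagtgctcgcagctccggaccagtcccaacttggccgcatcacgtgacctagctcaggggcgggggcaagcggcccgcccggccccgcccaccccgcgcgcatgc
In the GENCODE annotation the last 26 bases of the Cdk1 stretch, 9 of Cdc20 and 6 of Bub1 lie in the gene's own first exon, and 87 bases of the Plk1 stretch lie in an exon of the antisense gene Gm15489. The other 4 stretches overlap no annotated exon.

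The full promoter windows run from 250 bases before to 50 bases after the start, and the table holds them for 32 of the 36 genes (34 promoters, since Ect2 and Prc1 have more than 1). A CHR word stood in 30 of these 34 promoters, 88.2%, against 27.6% of all 32851 promoters of the same length. CCAAT stood in 27, 79.4%, against 37.4%, and both words stood in 76.5% against 10.7%. Of the E2F words TTTCGCGC, TTTGGCGC and TTTCCCGC, read on either strand, 1 member promoter held a match, that of Cdk1 (2.94% against 1.84%). No CHR letters were found in the windows of Bub1, Nuf2, Nusap1 and Tacc3. In a window of 50 bases on each side of the start, chosen after the positions were seen, 27 of the 34 promoters (79.4%) held CHR, against 8.28% of all. The CHR words of Anln lay after its start, and its window held no CCAAT. In other cell cycle lists, CHR stood in 52.8% of the promoters of other spindle, kinetochore and cytokinesis genes, 50% of those of mitotic entry regulators, 45% of those of cell cycle transcription factors and 42.9% of those of condensin and cohesin genes. It stood in 30.8% of those of replication licensing genes, 22.2% of those of CDK inhibitors, 16.7% of those of DNA synthesis genes, 14.3% of those of G1 cyclins and kinases and 11.1% of those of anaphase-promoting complex subunits. CCAAT stood in 5 of 6 promoters of mitotic entry regulators (83.3%) and in 10 of 13 of replication licensing genes (76.9%). The licensing genes held E2F words in 53.8%. Some lists are short, with 6 promoters of mitotic entry regulators, 7 of G1 cyclins and kinases and 9 of CDK inhibitors. In these a single promoter moves the share widely. A match is a description of letters and was not tested as a binding site.

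**Figure D1:**
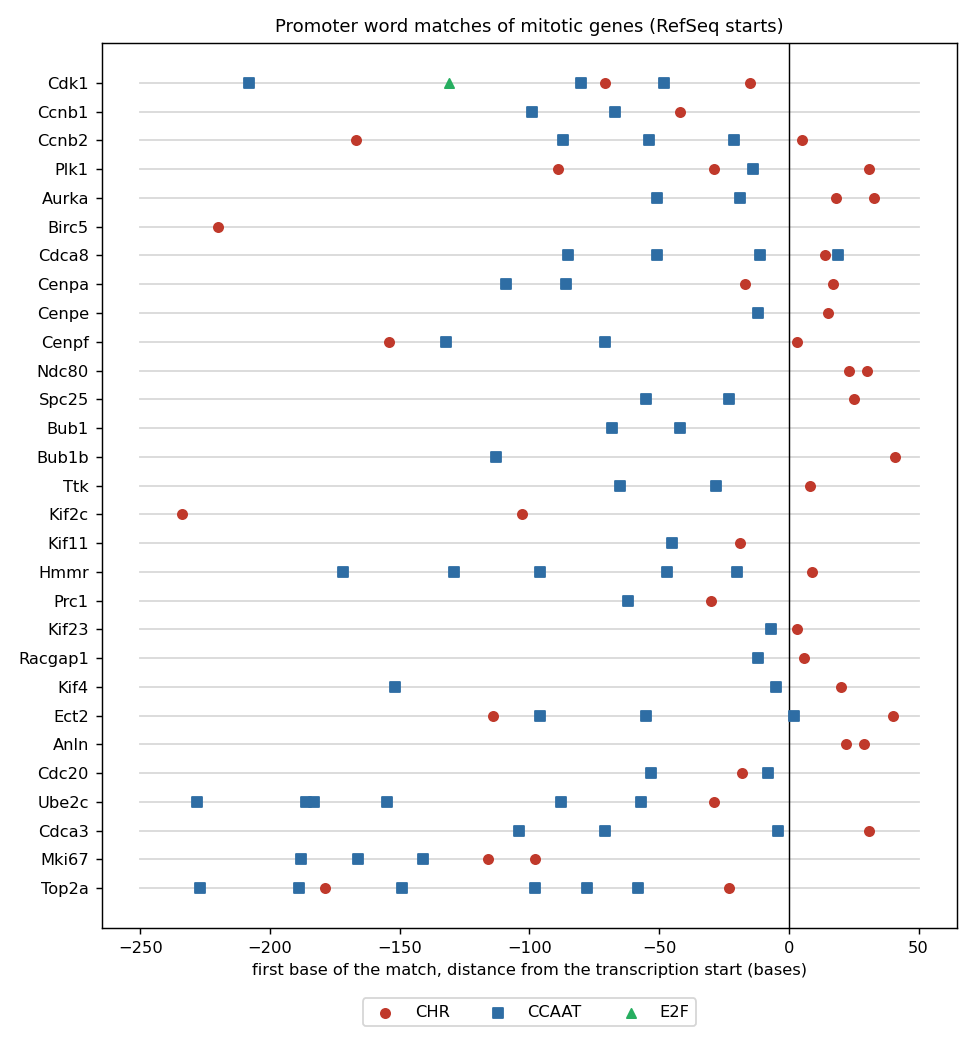
Position of each promoter word in the 29 mitotic genes that hold at least 1. The x axis is the distance in bases of the word's first base from the RefSeq start, and circles are CHR, squares CCAAT and the triangle E2F. Most CHR words lie within 50 bases of the start, while Birc5, Kif2c and Mki67 have theirs further upstream.

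Levels are CPM, a gene's counts relative to the scaled total of its library. Library totals ran from 15.7 M to 23.3 M counts. No mitotic gene had a count of 0 in any library, and the lowest count was 4, for the checkpoint kinase gene Ttk. In the ascending aorta with water, 23 of the 36 lay under 5 CPM. Per kb of exon, Anln was the most abundant at 9.87 RPKM. The other 35 ran from 0.194 RPKM for Ttk to 3.25 RPKM for Cdc20, with a median of 0.855. Anln alone made up 35.6% of the summed CPM of the 36 genes in that group, and for this reason sums below leave it out. Markers of smooth muscle, the main cell of the aortic wall, were Acta2, Myh11, Tagln, Cnn1, Smtn and Lmod1. Their sum was 18720 to 20650 CPM with water and 21840 to 24240 CPM with BAPN in the ascending aorta. In the descending aorta it was 18750 to 21340 and 22340 to 24800 CPM. Of the 6 genes only Acta2 was called higher with BAPN at an adjusted p under 0.05, in both regions, and 0 were called lower. Its mean went from 11450 to 14270 CPM in the ascending aorta. The median log2 difference of the 6 was 0.02 in each region, so the sums mostly follow Acta2. The levels were uneven: in ascending water Acta2 averaged 11450 CPM and Tagln only 60.6 CPM, below Anln at 89.4 CPM. The cause of the low Tagln level was not tested.

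The labels name no batch. The levels of 33 genes with the mark -ps in their symbol, which is used for pseudogenes, nevertheless parted the libraries into 10 and 10. The cut was made at the largest gap along their first principal component. The parts are called the higher and the lower pseudogene set here. The summed levels of these genes overlap between the sets (317.3 CPM in ascending BAPN 3 of the higher set, 332.6 CPM in ascending water 2 of the lower set). The higher set held ascending water 4 and 5, all 5 ascending BAPN libraries and descending water 1, 2 and 5. The division was made from the data, and it falls unevenly over the groups, so values within a set are given beside the counts below. The shares of all genes called below are those of the main fit. They were not counted for the fits within a set or with the set as a term.

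With BAPN, transcripts of mitotic genes were less abundant in the ascending aorta. The sum of the 35 genes without Anln was 146.9, 155.2, 180.8, 161.6 and 164.8 CPM in the 5 water libraries and 104.6, 86.4, 94.2, 128.4 and 118.9 CPM in the 5 BAPN libraries. The groups did not overlap, and the BAPN mean of 106.5 (SD 17.3) was 65.8% of the water mean of 161.9 (SD 12.6). Of the 36 genes 19 fell, 1 rose and 16 were not called at an adjusted p under 0.05, where 2.91% of all genes tested were called lower and 3.44% higher, 6.34% in all. The log2 difference was negative for 35 of 36, with a median of -0.62 beside -0.005 over all genes. The groups were fully apart and lower with BAPN for 20 genes, against 3.31% of all genes. In whole tissue, fewer dividing cells and less transcript per dividing cell cannot be told apart.

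Among the entry kinases and cyclins, 1 of 6 fell in the ascending aorta, with a median log2 difference of -0.54. This was Cdk1 (ENSMUSG00000019942, GRCm38 chromosome 10, 69335146 to 69352938), the kinase that starts mitosis. It stood at 3.89, 3.999, 5.39, 5.46 and 5.29 CPM with water and at 3.46, 2.20, 2.04, 3.14 and 2.12 CPM with BAPN. Every BAPN library lay below every water library, and the level was lower by 1.85-fold (log2 -0.89, SE 0.18, adjusted p = 0.00277). Its partners did not pass the test: the log2 difference was -0.42 for Ccna2 (95% interval -0.74 to -0.09, adjusted p = 0.111), -0.39 for Ccnb1 (-0.89 to 0.11, adjusted p = 0.375) and -0.50 for Ccnb2 (-0.91 to -0.09, adjusted p = 0.132). The Polo kinase gene Plk1 was at -0.63 (adjusted p = 0.1) and the Aurora A gene Aurka at -0.57 (adjusted p = 0.0549), both not called. The 3 genes of the chromosomal passenger complex, which corrects wrong attachments, were also not called: Aurkb, its kinase, at -0.65 (adjusted p = 0.0627), Birc5 (survivin) at -0.66 (adjusted p = 0.0895) and Cdca8 (borealin) at -0.49 (adjusted p = 0.203).

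Of the 10 centromere, kinetochore and checkpoint genes 5 fell, with a median of -0.69. Ndc80, a subunit of the complex that grips microtubules, had the largest difference of the 36, from 1.55, 2.28, 1.74, 1.52 and 1.88 CPM to 1.03, 0.550, 0.627, 0.938 and 0.933 CPM. It fell 2.18-fold (log2 -1.13, SE 0.22, adjusted p = 0.00233) and no other of the 35 fell by at least 2-fold in this region. Cenpa, the histone that marks the centromere, went from 5.93, 7.998, 8.70, 7.88 and 8.06 CPM to 5.45, 5.93, 4.91, 5.41 and 4.92 CPM. The lowest water library and the highest BAPN library almost met, at 5.930 and 5.926 CPM (log2 -0.54, SE 0.11, adjusted p = 0.00326). Cenpf, a kinetochore protein of late G2, went from 4.63, 6.17, 6.76, 4.94 and 6.08 CPM to 3.35, 3.18, 3.08, 4.41 and 2.92 CPM (log2 -0.75, SE 0.16, adjusted p = 0.00535). Its groups did not overlap. The kinetochore motor gene Cenpe (-0.79, SE 0.19) and the checkpoint kinase gene Bub1 (-0.98, SE 0.27, adjusted p = 0.0253) fell as well. The call of Bub1 was lost without ascending water 4 or ascending BAPN 1 or 2 (adjusted p = 0.0696 to 0.0752). The Ndc80 partners Nuf2 (-0.62, adjusted p = 0.183) and Spc25 (-0.62, adjusted p = 0.0959), the kinase Ttk (-0.81, adjusted p = 0.104) and the microtubule depolymerase gene Kif2c (-0.32, adjusted p = 0.546) were not called. The smallest difference was that of the checkpoint gene Bub1b, at -0.12 (95% interval -0.49 to 0.25, adjusted p = 0.768).

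All 5 spindle genes fell in the ascending aorta. They were Kif11, the motor that parts the poles (-0.57, SE 0.16), Tpx2, which activates Aurora A (-0.58, SE 0.14), Nusap1 (-0.67, SE 0.15), Hmmr (-0.76, SE 0.20) and Tacc3 (-0.40, SE 0.12). The calls of Kif11, Hmmr and Tacc3 were lost on leaving out any of 6, 3 and 12 libraries in turn (adjusted p = 0.0607 to 0.114, 0.0539 to 0.0809 and 0.0502 to 0.135). Of the 7 midzone and cytokinesis genes 4 fell and 1 rose. Prc1, which bundles the central spindle, went from 6.13, 6.44, 9.86, 7.04 and 7.76 CPM to 3.78, 3.24, 4.13, 5.74 and 4.36 CPM, with no overlap (log2 -0.81, SE 0.17, adjusted p = 0.00388). Racgap1 (-0.62, SE 0.15) and Ect2 (-0.52, SE 0.11), the pair that switches on RhoA at the equator, and the motor gene Kif20a (-0.81, SE 0.20) fell too. The motor genes Kif23 (-0.42, adjusted p = 0.212) and Kif4 (-0.87, adjusted p = 0.0552) were not called.

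Anln encodes anillin, the scaffold that ties actin, myosin and septins together in the contractile ring (ENSMUSG00000036777, chromosome 9, 22332012 to 22389188). It was the member that rose. Its level was 95.3, 95.5, 89.3, 86.7 and 80.2 CPM with water and 102.6, 118.6, 117.8, 116.5 and 127.1 CPM with BAPN, so that every BAPN library lay above every water library, as for 4.2% of all genes. The difference was 1.30-fold (log2 0.38, SE 0.06, adjusted p = 0.000221), and 3.44% of all genes were called higher. With it, the sum of all 36 genes moved from 251.3 to 223 CPM, 88.7%, and the share of Anln in that sum from 35.6% to 52.2%.

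Of the genes around the anaphase-promoting complex, Cdc20, its activator, went from 5.53, 6.11, 7.58, 4.99 and 6.13 CPM to 3.51, 3.60, 4.29, 3.48 and 4.73 CPM. The groups did not overlap (log2 -0.64, SE 0.13, adjusted p = 0.00323). Cdca3 fell (-0.81, SE 0.21), with its call lost without ascending BAPN 1 or 2 (adjusted p = 0.0577 at most), and the ubiquitin-conjugating enzyme gene Ube2c was not called (-0.61, adjusted p = 0.0755). Both chromosome structure genes fell. Mki67, the coat protein of mitotic chromosomes and the usual proliferation marker, went from 14.7, 14.4, 16.4, 14.5 and 15.4 CPM to 9.99, 9.22, 7.32, 12.4 and 11.2 CPM. The highest BAPN library stayed under the lowest water library (log2 -0.59, SE 0.12, adjusted p = 0.00199). Top2a, which untangles sister chromosomes, went from 13.95 (SD 1.18) to 8.91 (SD 2.37) CPM (log2 -0.65, SE 0.14).

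The genes called in the ascending aorta had more counts than those not called. The 19 that fell had a median level of 5.05 CPM and a median difference of -0.67 with a median SE of 0.162. The 16 not called had a median level of 2.66 CPM and a median difference of -0.59 with a median SE of 0.219. Within the higher pseudogene set, which leaves 2 water and 5 BAPN libraries, 3 genes were called lower. These were Cdk1 (-1.05, adjusted p = 0.0212), Cenpa (-0.58, adjusted p = 0.0388) and Prc1 (-0.80, adjusted p = 0.0368). The median difference there was -0.625, and Anln rose by 0.48 (adjusted p = 0.00223). With the set as a term of the model, 11 fell, with a median of -0.595. No share of all genes was counted for these fits, so these counts have no background beside them.

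**Figure D2:**
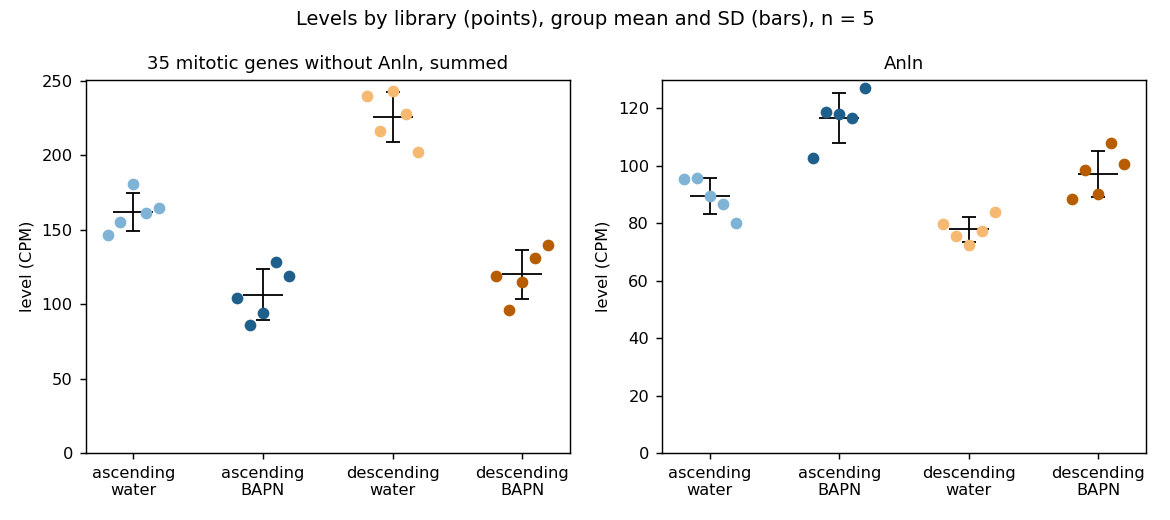
Summed level of the 35 mitotic genes without Anln (left) and level of Anln (right) in CPM, 1 point per library, with the group mean and SD as bars (n = 5). In both regions every BAPN library lies below every water library in the sum and above every water library for Anln.

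In the descending aorta the same comparison gave more calls. The 35-gene sum was 239.6, 216.4, 243, 227.6 and 202.5 CPM with water and 118.9, 96.6, 115.3, 131.2 and 139.6 CPM with BAPN. The groups lay far apart, and the BAPN mean of 120.3 (SD 16.4) was 53.3% of the water mean of 225.8 (SD 16.7). Of the 36 genes 33 fell, 1 rose (Anln) and 2 were not called (Aurka and Bub1b), with 4.54% of all genes called lower and 6.18% higher, 10.7% in all. The median log2 difference was -0.95 beside 0 over all genes, and 14 of the 35 fell by at least 2-fold. The libraries of 29 genes were fully apart and lower, against 3.27% of all genes.

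Cdc20 had the smallest p of the 36. It went from 9.62, 8.38, 9.03, 9.13 and 6.75 CPM to 4.43, 3.64, 3.75, 3.50 and 3.62 CPM, lower by 2.27-fold (log2 -1.18, SE 0.13, adjusted p = 1.09e-06). The BAPN libraries were tightly grouped, all far below the lowest water library. Cenpa went from 9.21, 8.38, 8.38, 11.2 and 8.53 CPM to 5.27, 5.25, 4.57, 5.17 and 4.76 CPM (log2 -0.87, SE 0.11, adjusted p = 9.49e-06), again with no overlap. Mki67 went from 21.1, 20.3, 24.0, 19.9 and 17.6 CPM to 12.5, 8.76, 10.5, 12.0 and 12.95 CPM (log2 -0.86, SE 0.11, adjusted p = 1.41e-05). Its groups were apart as well, with 17.6 CPM in the lowest water library and 12.95 CPM in the highest BAPN library.

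Ect2, the exchange factor for RhoA, went from 6.60, 5.73, 6.29, 6.01 and 6.32 CPM to 3.48, 2.86, 3.46, 4.13 and 3.62 CPM (log2 -0.82, SE 0.11, adjusted p = 2.42e-05). Racgap1, its partner, went from 12.7, 11.3, 14.1, 9.502 and 11.2 CPM to 5.72, 5.60, 4.92, 5.68 and 6.57 CPM (log2 -1.04, SE 0.15, adjusted p = 2.94e-05). In both genes every BAPN library lay below every water library. Top2a went from 19.8, 18.2, 18.0, 20.1 and 18.0 CPM to 8.35, 6.68, 9.43, 11.6 and 11.1 CPM (log2 -0.99, SE 0.14, adjusted p = 3.19e-05). Cdk1 went from 5.94, 6.28, 6.72, 5.58 and 4.85 CPM to 2.36, 1.91, 3.57, 3.39 and 3.33 CPM (log2 -1.01, SE 0.18, adjusted p = 0.000387), and its highest BAPN library was under its lowest water library.

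By role, 5 of the 6 entry kinases and cyclins fell in the descending aorta (median -0.88), among them Ccnb1, the B cyclin that activates CDK1, at -1.16 (SE 0.22) and Ccna2 at -0.81 (SE 0.14). The exception, Aurka, was at -0.44 (95% interval -0.79 to -0.10, adjusted p = 0.0875). All 3 passenger genes fell (median -0.82). Of the centromere, kinetochore and checkpoint genes 9 of 10 fell, with the most negative median of the 7 roles, -1.16. The largest of their differences were those of Kif2c (-1.35, SE 0.27), Spc25 (-1.29, SE 0.21), Cenpe (-1.29, SE 0.19) and Ttk (-1.28, SE 0.27). Bub1b was at -0.48 (95% interval -0.85 to -0.12, adjusted p = 0.072), although its libraries did not overlap. All 5 spindle genes (median -0.69), 6 of 7 midzone and cytokinesis genes (median -0.95), 3 of 3 genes around the anaphase-promoting complex (median -0.88) and 2 of 2 chromosome structure genes (median -0.92) fell.

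Anln again went the other way. It stood at 79.8, 75.6, 72.4, 77.4 and 83.9 CPM with water and at 88.4, 98.5, 90.2, 107.8 and 100.7 CPM with BAPN. The groups did not overlap, as for 4.1% of all genes (log2 0.32, SE 0.06, adjusted p = 0.00112). Within the lower pseudogene set, which holds 2 water and 5 BAPN libraries of this region, 24 genes fell and 1 rose, with a median of -0.994, and with the set as a term 31 fell. The share of all genes called was not counted for either fit. The calls of Cdca8, Nuf2 and Ube2c were lost when single libraries were left out (descending water 3 or BAPN 2 for Cdca8, descending water 1 for Nuf2, and descending water 1 or BAPN 1, 2 or 3 for Ube2c, with adjusted p of at most 0.0779).

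**Figure D3:**
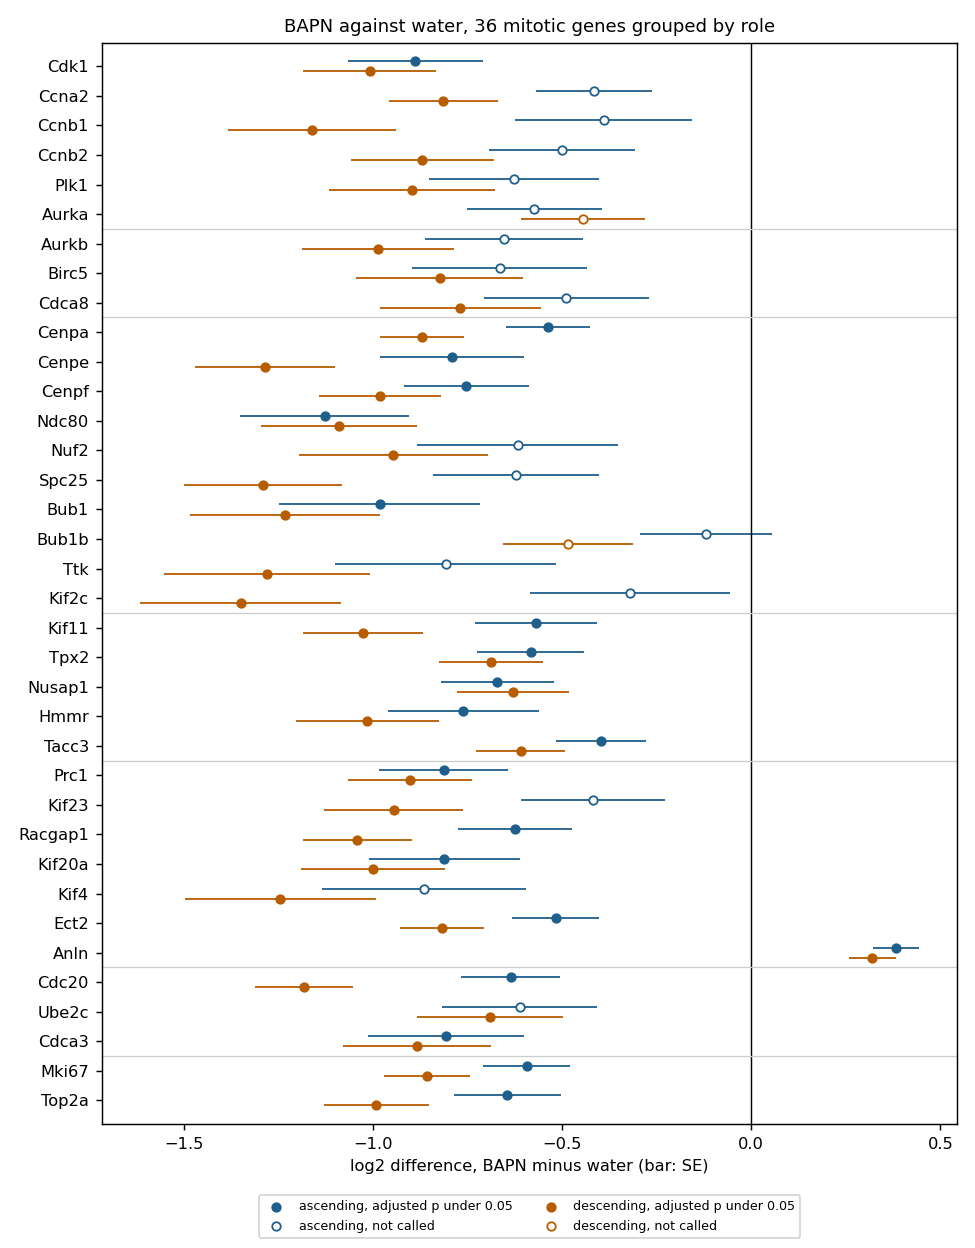
Log2 difference, BAPN minus water, of each of the 36 genes in the ascending (blue) and the descending (orange) aorta, with SE bars and genes grouped by role. Filled points passed an adjusted p under 0.05, and every point except those of Anln lies left of 0.

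All 19 genes that fell in the ascending aorta also fell in the descending aorta. They are 57.6% of the 33 that fell there. Over all genes tested, 237 were lower in both regions, 52.4% of those lower in the ascending and 33.6% of those lower in the descending aorta. The other 14 were called in the descending aorta alone. For 32 of the 35 genes without Anln the descending value was the more negative, the exceptions being Aurka, Ndc80 and Nusap1. The difference of the 2 responses was tested directly and called for 0 of the 36 genes, and for 0% of all genes tested. With DESeq2 it was called for 0 of the 36 and 14 of all genes, and with limma-voom for 0 of both. At an unadjusted p under 0.05 there were 5 of the 36 genes by edgeR, 7 by DESeq2 and 3 by limma-voom, where 6.88%, 6.82% and 6.73% of all genes tested were under it.

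The median difference of responses was -0.29 with a median SE of 0.266, so that for most genes a difference of this size is close to its own error. The smallest p belonged to Cdc20, at -0.55 (95% interval -0.94 to -0.16, adjusted p = 0.472). The others with an unadjusted p under 0.05 were Kif2c at -1.03 (-1.83 to -0.23, adjusted p = 0.555), Ccnb1 at -0.77 (-1.46 to -0.08, adjusted p = 0.625), Spc25 at -0.67 (-1.32 to -0.02, adjusted p = 0.694) and Cenpa at -0.33 (-0.67 to -0.002, adjusted p = 0.705). These tests do not show that the regions respond alike, and they do not show that they differ.

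Under water the descending aorta held more of these transcripts than the ascending. The 35-gene sum was 139.5% of that of the ascending aorta, and the 2 sets of 5 libraries did not overlap. Of the 36 genes 22 were higher in the descending aorta, 1 was lower and 13 were not called, while 12.1% of all genes were called higher and 15.2% lower, 27.3% in all. The median log2 difference was 0.51 beside 0.009 over all genes, and for 18 genes the libraries were fully apart and higher (8.37% of all genes). The 6 with the smallest p were Ccna2, Racgap1, Ccnb1, Cdc20, Mki67 and Spc25. Ccna2, which acts in S phase and mitotic entry, stood at 4.59, 4.17, 4.56, 5.46 and 6.97 CPM in the ascending and at 8.80, 8.38, 9.40, 9.18 and 8.41 CPM in the descending water libraries. The regions did not overlap (log2 0.78, SE 0.14, adjusted p = 0.000108).

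Ccnb1 stood at 2.19, 2.56, 3.40, 2.57 and 2.92 CPM in the ascending and at 5.07, 5.24, 5.86, 5.10 and 4.36 CPM in the descending water libraries, the largest difference of the 36 (log2 0.90, SE 0.22, adjusted p = 0.00204). Here too the lowest descending library was above the highest ascending one. Racgap1 was at 0.63 (SE 0.14), Cdc20 at 0.50 (SE 0.12), Mki67 at 0.45 (SE 0.11) and Spc25 at 0.80 (SE 0.20). Cdk1 (0.29, 95% interval -0.06 to 0.64, adjusted p = 0.216) and Nusap1 (0.06, -0.24 to 0.36, adjusted p = 0.811) were not called. Anln was lower in the descending aorta (-0.20, SE 0.06, adjusted p = 0.015), a call lost without descending water 3 (adjusted p = 0.051) and within the higher pseudogene set (-0.07, adjusted p = 0.574) but kept within the lower set (-0.32, adjusted p = 0.00528).

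Of the 22 regional calls 11 were kept on leaving out each library in turn, and the count was 14 without descending water 1. Within the pseudogene sets, which leave 2 or 3 libraries a region, 7 (higher set) and 12 (lower set) genes were called higher, with medians of 0.433 and 0.506. How many of all genes were called in these smaller fits was not counted. The water libraries of each region serve both in this comparison and in that region's BAPN comparison, so the values are set side by side and not correlated.

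Under BAPN few regional differences of the mitotic genes were called. The descending 35-gene sum was 113% of the ascending one, with overlapping libraries. Of the 36 genes 1 was higher in the descending aorta, 1 was lower and 34 were not called, against 14.2% of all genes called higher and 15.6% lower, 29.8% in all. The log2 difference was positive for 32 of 36, with a median of 0.15 and a median SE of 0.199. The change of the regional difference from water to BAPN is the difference of responses tested above, which was called for 0 of the 36. The higher gene was Aurka, at 1.30, 1.59, 1.57, 1.38 and 1.49 CPM in the ascending and at 2.75, 2.21, 2.11, 2.07 and 2.95 CPM in the descending BAPN libraries. The regions did not overlap, as for 9.37% of all genes (log2 0.73, SE 0.18, adjusted p = 0.00256), and Aurka was also higher in the descending aorta under water (0.60, SE 0.16, adjusted p = 0.0067). The lower gene was Anln (-0.26, SE 0.06, adjusted p = 0.00146). The next smallest were Ndc80 (0.59, adjusted p = 0.0627) and Ccna2 (0.38, adjusted p = 0.0671). The count of higher genes was 4 without ascending BAPN 4 or without descending BAPN 2. It was 2 without ascending water 5, ascending BAPN 1 or 5, or descending BAPN 1. All ascending BAPN libraries are in the higher and all descending BAPN libraries in the lower pseudogene set, so no value within a set can be had. With the set as a term, again 1 gene was higher and 1 lower, with a median of 0.114.

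**Figure D4:**
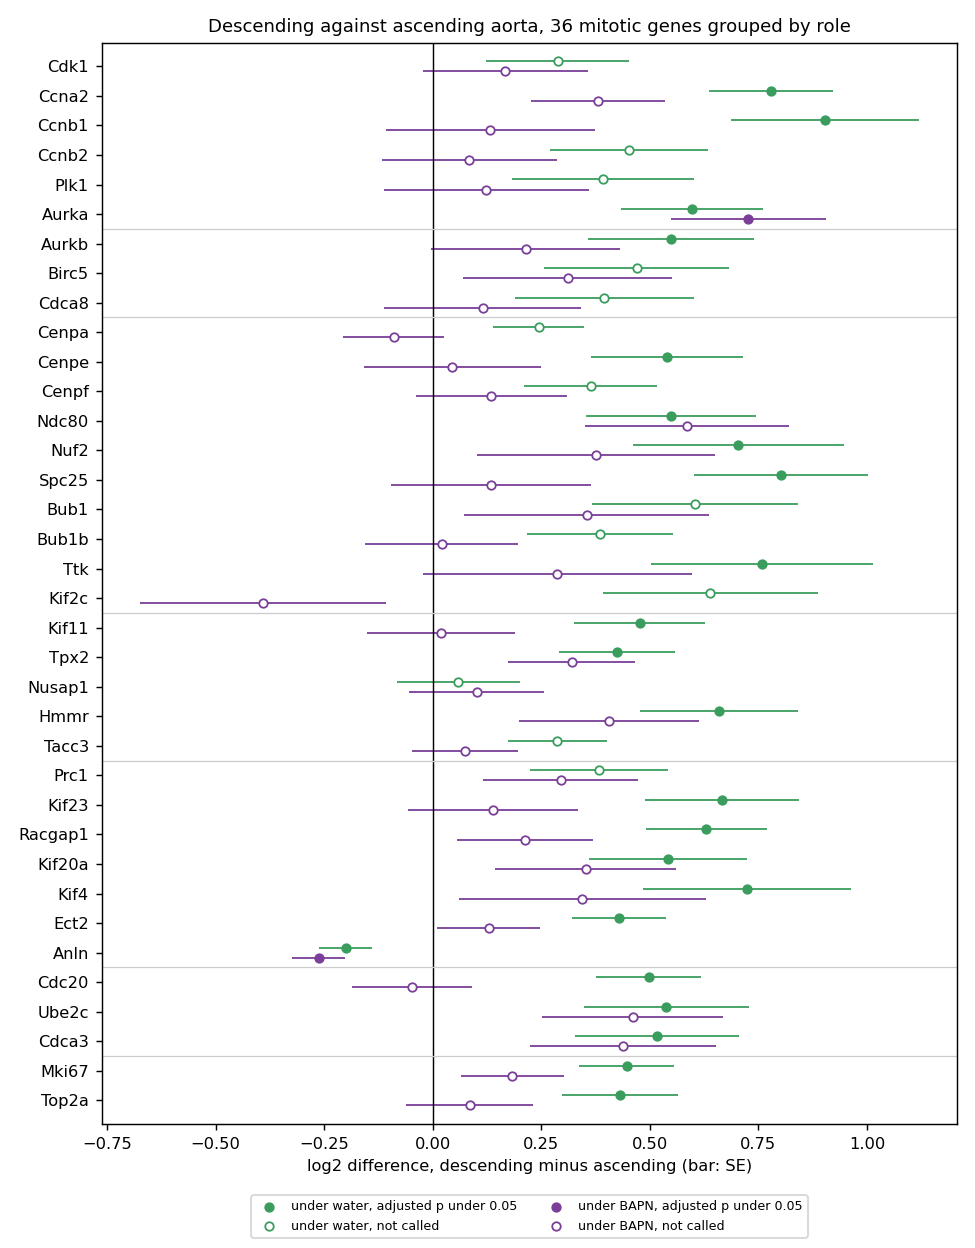
Log2 difference, descending minus ascending aorta, of each of the 36 genes under water (green) and under BAPN (purple), with SE bars. Filled points passed an adjusted p under 0.05: 22 higher and 1 lower under water, and Aurka and Anln under BAPN.

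Within groups the mitotic genes varied together. Over the deviations of 20 libraries from their group means, the median Pearson correlation of 595 pairs of the 35 genes was 0.353, and 91.3% of the pairs were above 0. These points share library scaling and low counts, and the values are a description. Anln did not follow the others, with a correlation of 0.016 to their mean. In the ascending BAPN group the mean log2 deviation of the 35 genes was -0.32 in library 2 and 0.30 in library 4, and in the descending BAPN group it was -0.33 in library 2 and 0.20 in library 5. The totals of these 4 libraries ran from 16.1 M to 21.5 M counts. The spread was smaller with water, from -0.16 to 0.16 over the 10 libraries. For numbers 1 to 5 the deviations were -0.01, -0.32, -0.16, 0.30 and 0.20 in ascending BAPN. In descending BAPN they were 0.01, -0.33, -0.05, 0.16 and 0.20, so same-numbered BAPN libraries were similar in these genes. Whether such libraries share an animal is not stated.

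**Figure D5:**
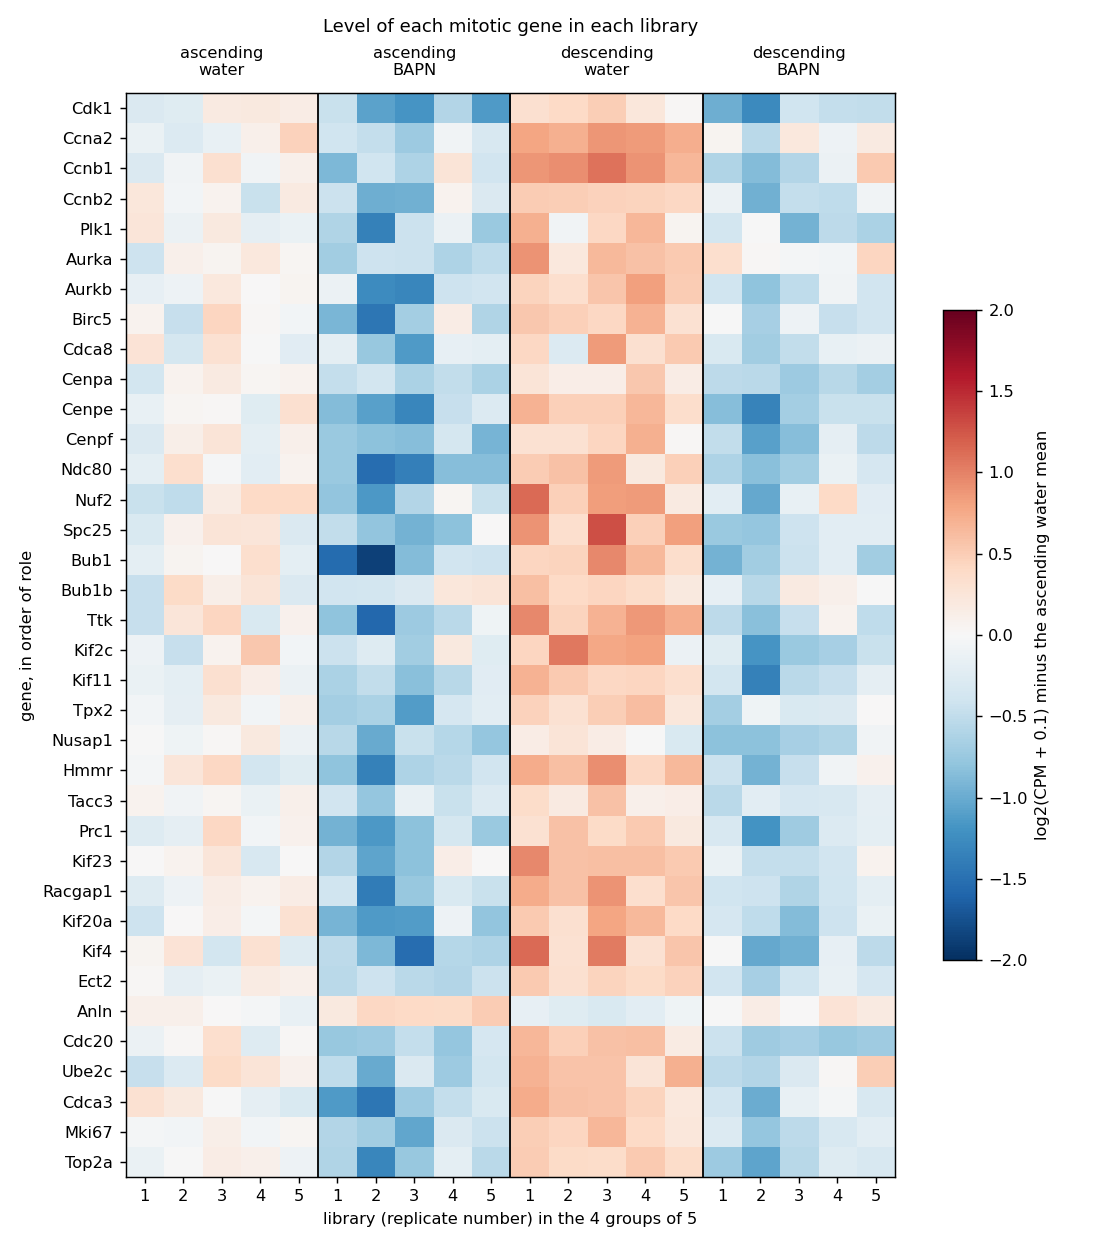
Level of each gene in each library as log2(CPM + 0.1) minus the mean of the 5 ascending water libraries, with genes in order of role and the scale running from -2 to 2. The descending water columns are mostly red and both BAPN blocks mostly blue, Anln shows the opposite colours, and library 2 has the lowest mean of the 35 genes in each BAPN block.

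Other cell cycle genes were taken in 9 lists of 173 genes outside the 36 (172 tested). In the ascending aorta 3 were higher and 23 lower (median -0.137), and in the descending aorta 5 were higher and 58 lower (median -0.286). Over all genes tested, 3.44% were higher and 2.91% lower in the ascending, and 6.18% and 4.54% in the descending aorta. Against these shares, 1 call in a short list says little about that list. The closest list in function, 57 other spindle, kinetochore and cytokinesis genes, had 13 lower and 0 higher in the ascending (median -0.40) and 26 lower and 0 higher in the descending aorta (median -0.73). Among the ascending calls were Arhgap11a, which tempers RhoA in cytokinesis (-0.76, SE 0.16), the centrosome kinase gene Nek2 (-0.88, SE 0.18), Aspm, which focuses spindle poles (-0.78, SE 0.17), and the centromere gene Cenpm (-1.56, SE 0.33). In the descending aorta Cenpm was not called (-0.48, adjusted p = 0.354).

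Of 9 regulators of mitotic entry 4 fell in the ascending and 5 in the descending aorta. All 9 had a negative difference in both regions, with medians of -0.59 in the ascending and -0.56 in the descending aorta. The medians of the 36 mitotic genes were -0.62 and -0.95, so the lists were close in the ascending aorta only. Cdc25b, a phosphatase that activates CDK1, went from 35.9 to 23.7 CPM in the ascending aorta (log2 -0.60, SE 0.08, adjusted p = 1.31e-05) and Cdc25c, its relative, from 0.752 to 0.206 CPM (-1.84, SE 0.35). Wee1, the kinase that holds CDK1 inactive, fell too, from 25.1 to 14.1 CPM (-0.84, SE 0.12, adjusted p = 7.7e-05) and in the descending aorta by 0.62 (SE 0.12). Genes of CDK1 activators and of its inhibitor were both lower with BAPN. Ccnf, an F-box cyclin, was at -1.08 (SE 0.31) in the ascending aorta.

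Among 20 cell cycle transcription factors 1 rose and 1 fell in the ascending aorta, and 1 rose and 5 fell in the descending. E2f1, an activator of S phase genes, fell in both (-0.46, SE 0.11, and -0.65, SE 0.11), and E2f3 rose in the ascending aorta (0.27, SE 0.07). Foxm1, the factor that drives G2/M genes, was at -0.46 in the ascending aorta (adjusted p = 0.0557, not called) and fell by 0.89 in the descending (SE 0.14, adjusted p = 8.24e-05). Lin9, a core subunit of the MuvB complex that binds CHR, was not called in either region (-0.42, adjusted p = 0.0683, and -0.39, adjusted p = 0.0645).

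Of 7 CDK inhibitor genes Cdkn1a, which encodes p21, rose from 73.7 to 94.3 CPM in the ascending (log2 0.36, SE 0.06, adjusted p = 0.000626) and from 45.2 to 63.2 CPM in the descending aorta (0.48, SE 0.06, adjusted p = 1.81e-05). Cdkn2b, which encodes p15 and was named after its values were seen, rose in the descending aorta (0.58, SE 0.19, adjusted p = 0.0483). Cdkn2c, which encodes p18, fell in both (-0.39, SE 0.07, and -0.56, SE 0.06). Of 16 replication licensing genes 1 rose and 1 fell in the ascending aorta: Mcm6 at 0.17 (SE 0.05) and Mcm5 at -0.51 (SE 0.12), both subunits of the same helicase. In the descending aorta 0 rose and 7 fell (median -0.43). The other lists had 1 call each or fewer in the ascending aorta. Of 22 DNA synthesis genes 1 fell, Uhrf1 (-0.52, SE 0.14). Of 16 condensin and cohesin genes 1 fell, Ncapd2 (-0.59, SE 0.09), and of 9 G1 cyclins and kinases 1 fell, Ccne2 (-0.65, SE 0.13). Of 16 anaphase-promoting complex subunits 0 were called, with a median of -0.03. In the descending aorta these 4 lists had 6, 4, 2 and 2 genes lower, and the G1 list had 2 higher.

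Markers of cell types that could carry dividing cells were measured in the same libraries. Of 7 macrophage genes 0 were called in either region, and their sum ran from 256.3 to 368.5 CPM with water and from 279.6 to 350 CPM with BAPN in the ascending aorta. In the descending aorta the ranges were 299.7 to 351.1 and 288 to 380.1 CPM. T cell and B cell genes summed to at most 4.70 and 4.86 CPM in any library, with Cd3e and Cd3d too low to test and 0 called for BAPN. The neutrophil genes Ly6g and Retnlg were also too low to test. The transferrin receptor gene Tfrc, which many dividing cells express, rose in both regions (0.35 and 0.28). Of 6 smooth muscle genes Acta2 rose in both regions (0.32 and 0.34), and of 6 endothelial genes Cldn5 rose in the descending aorta (0.27). Of 5 fibroblast genes Dpt fell in the descending aorta (-0.32), and of 5 cardiomyocyte genes Tnnt2 rose in the ascending (0.43), where their sum went from between 376.2 and 935 to between 619.7 and 1164 CPM. Of 4 chondrocyte genes Acan rose (0.27) and Comp fell (-0.48) in the descending aorta. Of the adipocyte, Schwann cell and mesothelial genes 0 were called for BAPN. Between the regions the libraries differed more in such markers: under water the 5 cardiomyocyte genes summed to between 376.2 and 935 CPM in the ascending and between 11.5 and 15.5 CPM in the descending aorta, and the 4 mesothelial genes to between 187.5 and 336.2 and between 0.982 and 9.47 CPM. Of 5 fibroblast genes 4 were lower in the descending aorta (median -0.63), with sums of 3579 to 3929 CPM in the ascending and 2253 to 2499 CPM in the descending water libraries. Of 4 chondrocyte genes 4 were lower and of 4 adipocyte genes 3 were higher there, and 3 of 4 Schwann cell genes were lower. The part of these markers in the mitotic gene differences was not tested.

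Exons of 11 of the 36 genes overlap another annotated gene, in 5 by at least 10% of their length. These are Kif20a with Cdc23 (29.3%), Ube2c with Tnnc2 (22.8%), Kif4 with Pdzd11 (15.1%), Ccna2 with Exosc9 (12.5%) and Prc1 with Rccd1 (11.1%). Whether strand was used in counting is not given in the sources used here, so reads of such pairs may not be told apart. Tnnc2 had at most 1 count in a library, and the other 4 partners were not called in any of the 4 comparisons of groups. Ccnb1, Ccnb2 and Kif4 also have copies named as pseudogenes, and how their shared reads were counted is not given.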

How the data were processed

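RNA of mouse aorta was measured by RNA-seq in 20 libraries, grouped by their titles and treatment labels. Per the labels' protocols, RNA was extracted with a kit for fibrous tissue and libraries were made from total RNA with a NEBNext Ultra kit. The authors deposited unnormalised read counts for each Ensembl gene. The submitters' processing notes name the mm10 build and the tools HTSeq 0.6.1, STAR 2.5 and fastp. Their settings, annotation and use of strand are not given in the sources used here. Symbols and coordinates are those of GENCODE M21 on GRCm38 (54409 IDs matched, 123 did not). The members and lists were chosen with earlier results of these data known.

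Genes were filtered with filterByExpr (minimum count 10, minimum total 15), scaled by TMM and fitted with edgeR 4.0.16 (R 4.3.3) as a quasi-likelihood model with 1 coefficient per group and 16 residual degrees of freedom. P-values were adjusted by Benjamini-Hochberg over the 15543 genes tested. SE is the size of the log2 difference divided by the root of F, and 95% intervals use it. CPM are TMM-scaled, and RPKM divide them by exon length. The design's rule gave per-library values for the 8 smallest p of the ascending, 6 of the descending comparison, Mki67 and Cdk1. It named 6 genes of each regional comparison and, of each other list, the ascending calls and up to 4 with the smallest p. Per-library values of Ccna2, Ccnb1 and Aurka were added after their values were seen. Same-numbered libraries were checked for shared deviations over all genes tested (r from -0.048 to 0.167) and treated as unpaired. In the mitotic genes alone, same-numbered BAPN libraries had similar deviations, as given above. Alternatives included DESeq2 1.42.0 and limma 3.58.1 (voom). The pipeline was tested on simulated data. Promoters are from RefSeq, and figures were drawn with matplotlib 3.10.9.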

Additional observations from a re-analysis of the deposited data

Results flagged for a closer look

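In each group of 5 libraries, each gene was screened for a library far from the other 4, and 4 of 144 combinations of gene and group were set apart; chance sets apart about 1 in 20 such groups. Aurka was at 1.595 CPM in ascending water 1, against 2.224 to 2.521 CPM in the other ascending water libraries. Cenpa was at 5.930 CPM in the same library, against 7.879 to 8.703 CPM. Nusap1 was at 5.379 CPM in descending BAPN 5, against 3.139 to 3.673 CPM in the other descending BAPN libraries. Kif23 was at 7.473 CPM in descending water 1, against 5.461 to 5.798 CPM.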

How the results depend on the processing

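Across the alternatives no followed difference of a mitotic gene changed sign. This held over 2400 values with 1 library left out (2288 on the same side of the threshold) and 1218 under other settings (1121). All mitotic genes were followed for BAPN in each region and for the regional comparison under water. For the regional comparison under BAPN and the difference of responses, only the mitotic genes with the smallest p were followed. They were picked by these same values, so their kept signs say little about the genes not followed. Single genes of the other lists and cell type markers were not followed in this way. Of the 19 counts and medians, 11 stayed within their limits in every setting. With the pseudogene set as a term, the ascending count of lower mitotic genes went from 19 to 11, and the other cell cycle genes went from 23 lower and 3 higher to 14 and 1 in the ascending, and from 58 lower and 5 higher to 38 and 2 in the descending aorta. Within the higher set 3 mitotic genes were lower in the ascending aorta, with 9 other cell cycle genes lower and 1 higher, and in the regional comparison under water 7 were higher and 0 lower. Within the lower set 12 were higher in that comparison, and 20 other cell cycle genes were lower and 0 higher in the descending aorta. Fewer libraries enter the fits within a set, and the share of all genes called was not counted for any fit that used the sets. Upper-quartile scaling gave 3 higher other cell cycle genes and a fit to the compared groups alone gave 2 in the descending aorta, and no filter gave 1 in the ascending. The cause was not tested. Scaling moved the median of all genes by at most 0.026.

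Leaving out each library gave 14 to 21 lower mitotic genes in the ascending and 31 to 33 in the descending aorta, 14 to 24 higher and 0 to 1 lower in the regional comparison under water, and 1 to 4 higher under BAPN. Other cell cycle genes ran from 16 to 28 lower and 1 to 3 higher in the ascending, and from 45 to 59 lower and 2 to 5 higher in the descending aorta. With the replicate number as a block, 22 mitotic genes were lower in the ascending and 33 in the descending aorta, 21 were higher in the regional comparison under water, and the difference of responses was called for 0. Same-numbered libraries share only a number in the labels. The block joins a number across all groups, and a pairing of regions within a treatment was not fitted. Over all genes tested, each of the 5 ascending BAPN libraries correlated best with the descending BAPN library of its own number (r from 0.064 to 0.106). In the mitotic genes their deviations were also similar, and this is a hint from the data, not the design. If such libraries share an animal, the regional tests left that pairing out. Of the 36 genes 23 lay under 5 CPM in ascending water, and the effect of depth on the calls was not tested.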
